A study of Mus musculus with 6 samples.

Results

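*Alpl*, *Limch1*, *Acsf2*, *Zfp703*, *Tnxb*, *Erdr1*, *Scrn1*, *Hhipl2* and *Otor* are 9 genes of unrelated families among the 18460 genes counted in 6 mouse breast tumors. They were chosen because, in the comparison of 3 test with 3 control tumors, each had a low unadjusted p or a large difference in level, with no fixed threshold. Their levels in the tumors are therefore described without a test. All 9 were found by NCBI Gene identifier, and 8 of them were among the 13706 genes that passed the filter on low counts, the exception being *Otor*. *Alpl*, *Tnxb*, *Erdr1* and *Hhipl2* were higher in the test tumors, and *Limch1*, *Acsf2*, *Zfp703*, *Scrn1* and *Otor* were lower.

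The tumors came from Balb/c mice that carry the polyomavirus middle T oncogene under the mouse mammary tumor virus promoter (PyMt tg), which is active in mammary epithelium. Every mouse also lacked *Rag1*, so that no T or B cells of the host formed, and was injected when 4 wk old with CD4+ T cells. The 3 control tumors came from PyMTtg;Rag1KO mice, which carried no further transgene. The 3 test tumors came from K14-TSLPtg;PyMTtg;Rag1KO mice, which also carried *Tslp*, the cytokine thymic stromal lymphopoietin, under the keratin 14 promoter, which is active in keratinocytes and other basal epithelial cells. Tumors were collected at 18 to 20 wk of age and whole tumor RNA was sequenced, so a level reflects every cell type in the piece. In such bulk samples fewer cells of a type and less RNA per cell cannot be told apart.

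The 9 genes act in different places. *Alpl* encodes the tissue-nonspecific alkaline phosphatase, an ectoenzyme that releases phosphate and is known from bone mineralization. *Limch1* encodes an actomyosin regulator that binds non-muscle myosin II, *Acsf2* a mitochondrial acyl-CoA synthetase, and *Zfp703* a transcriptional corepressor of the NET zinc finger family whose human counterpart lies in an amplified region of luminal breast cancers. *Tnxb* encodes tenascin X, a glycoprotein of loose connective tissue matrix. *Erdr1* encodes erythroid differentiation regulator 1, *Scrn1* secernin 1, a cytosolic protein of regulated exocytosis, *Hhipl2* a relative of the hedgehog-interacting protein, and *Otor* otoraplin, a small secreted protein of the MIA family known from the cochlea and cartilage.

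The sequence before the start of transcription is shown for *Hhipl2* and *Otor*, which of the 9 had the largest ratio between the groups in each direction, and for *Alpl*, which had the lowest unadjusted p of the 9. Each is the 250 bases before an annotated start in RefSeq (GRCm38.p6), written 5′ to 3′ on the strand of the gene. Where there were several such starts, the one farthest 5′ was taken. The start used for *Hhipl2* lies inside the gene, whose span begins at 183414463, so this window is not upstream of the whole gene. Capitals mark matches to any of 6 short motifs searched on both strands, which were the TATA box (TATAAA), the NF-Y box (CCAAT), the GC box (GGGCGG), the STAT5-type palindrome (TTCNNNGAA), the STAT6-type palindrome, which has an extra base between its arms, and the AP-1 site (TGANTCA).
*Hhipl2*, chr1:183418220-183418469, plus strand: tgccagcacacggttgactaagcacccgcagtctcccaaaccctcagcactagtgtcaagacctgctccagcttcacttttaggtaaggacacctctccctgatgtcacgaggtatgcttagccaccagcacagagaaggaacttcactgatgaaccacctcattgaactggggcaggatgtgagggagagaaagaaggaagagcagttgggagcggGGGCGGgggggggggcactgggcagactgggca
*Otor*, chr2:143078143-143078392, plus strand: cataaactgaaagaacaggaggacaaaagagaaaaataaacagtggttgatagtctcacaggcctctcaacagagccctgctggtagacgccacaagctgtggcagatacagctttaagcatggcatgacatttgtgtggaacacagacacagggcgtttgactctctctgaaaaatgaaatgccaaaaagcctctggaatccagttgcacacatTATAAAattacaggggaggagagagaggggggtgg
*Alpl*, chr4:137796385-137796634, minus strand: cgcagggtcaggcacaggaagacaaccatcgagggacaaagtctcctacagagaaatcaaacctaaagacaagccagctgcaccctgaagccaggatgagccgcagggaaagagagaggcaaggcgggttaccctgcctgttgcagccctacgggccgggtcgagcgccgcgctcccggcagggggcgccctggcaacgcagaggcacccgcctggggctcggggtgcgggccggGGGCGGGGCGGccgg
The window of *Otor* held a TATA box that began 35 bases before the start and no GC box. TATAAA was present in 12.4% of all 32851 promoter windows of this length. *Hhipl2* held a GC box 33 bases before the start and *Alpl* overlapping GC boxes from 15 bases before it, a motif found in 32.7% of windows. Both genes had a second start further into the gene, where the window of *Hhipl2* (chr1:183418998-183419247) held a GC box 90 bases before the start and that of *Alpl* (chr4:137766476-137766725) held no GC box and a TATA box 192 bases before the start. The set of windows used here held 11 for 7 of the 9 genes and none for *Zfp703* and *Erdr1*. Over those 11 windows, the GC box was found in 6, the TATA box in 3, the NF-Y box in 1 and the AP-1 site in 1. The AP-1 site was 55 bases before an annotated start of *Tnxb* that lies inside the gene. The NF-Y box and the AP-1 site were present in 33.8% and 6.75% of all windows. The STAT5-type and STAT6-type palindromes were found in none of the 11, and in 7.02% and 5.85% of all windows. A match is a stretch of letters and not evidence of binding.

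The depth and the quality of the libraries set the precision of these levels. Expected counts, which estimate the reads that came from a gene, summed to between 8373390 and 9449565 per tumor. Levels are given as CPM, the counts scaled to library size with edgeR's TMM method. Levels of 3 counts or fewer in a tumor were treated as the floor of this depth, which covers counting error only. *Tslp* gave 2, 2 and 3 counts from the control tumors and 12, 7 and 2 from the test tumors, a low level in both groups. *Rag1* had 4 to 27 counts in the control and 6 to 12 in the test tumors, and counts per gene do not show whether those reads came from the deleted part. Luminal epithelial markers were detected in all tumors (8 of 8), with a summed level of 1925 to 4256 CPM in control and 5474 to 5835 CPM in test tumors. Control replicate 2 had the 4256 CPM, against 2218 and 1925 CPM in control replicates 1 and 3. T cell markers summed to only 5.42 to 9.52 CPM in any tumor. Control replicate 2 stood apart from the other control tumors in several of the genes below.

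The levels of 8 of the 9 genes did not overlap between the groups, against 12% of all tested genes, and *Scrn1* was the exception. In 4 of them the test tumors were higher (6.12% of all tested genes) and in 4 lower (5.86%). For *Otor* the separation was only 4 against 3 counts. Because the genes were chosen on this comparison, nothing is read from that share. No gene of the 13706 passed an adjusted p of 0.05 (quasi-likelihood F test of edgeR, Benjamini-Hochberg adjusted), whereas 1153 (8.41%) had an unadjusted p under 0.05, 432 of them (3.15%) higher and 721 (5.26%) lower in the test tumors. DESeq2 called 313 genes at an adjusted p of 0.05 from the same counts. Without control replicate 2, edgeR's test called 182 genes. The plot of levels by tumor shows the spread within each group for all 9.

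**Figure D1:**
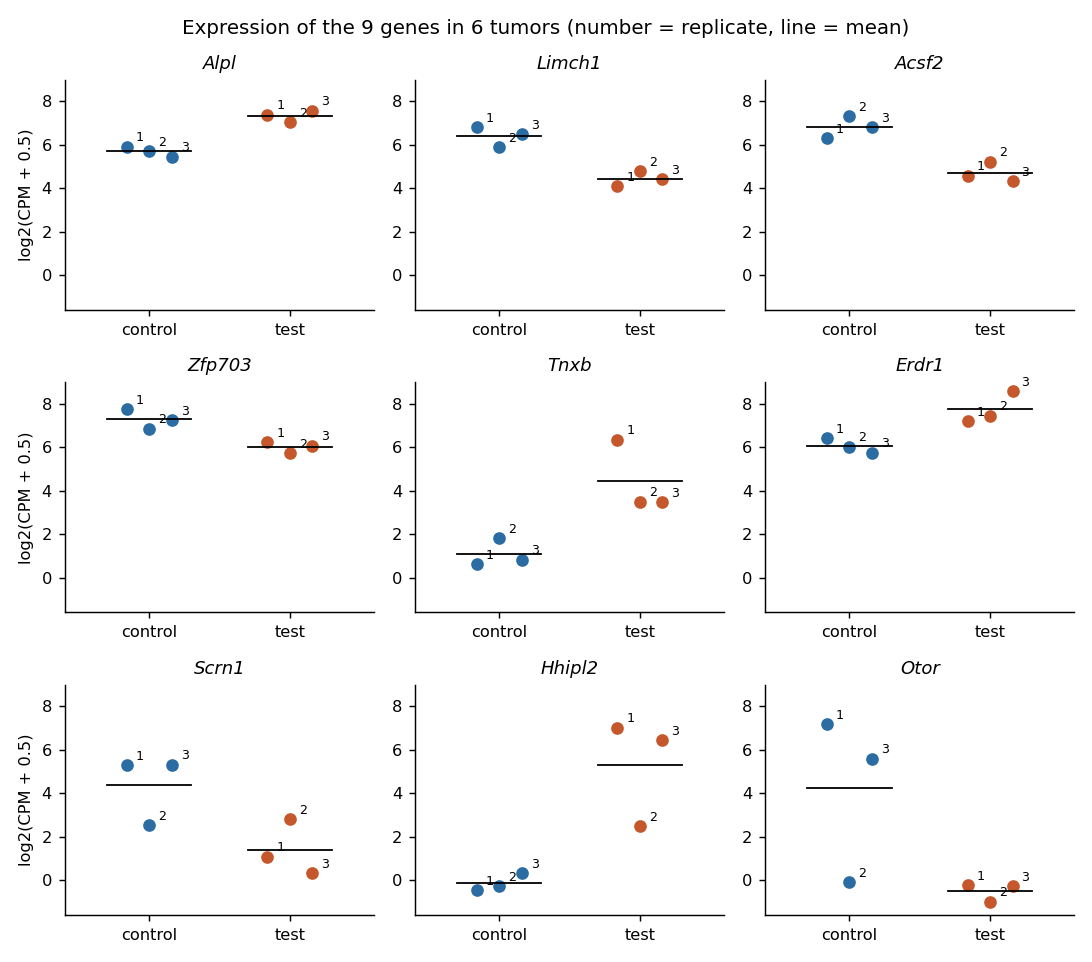
Level of the 9 genes in each tumor as log2(CPM + 0.5), with control tumors in blue, test tumors in orange, the replicate number beside each point and a line at the group mean. *Alpl*, *Limch1*, *Acsf2* and *Zfp703* keep within a factor of 2.02 inside each group, whereas *Hhipl2*, *Tnxb*, *Scrn1* and *Otor* spread widely in at least 1 group.

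*Alpl* (NCBI Gene 11647, GRCm38 chromosome 4, 137741731 to 137796384, minus strand) had 60.1, 52.1 and 43.3 CPM in control replicates 1, 2 and 3. It had 166.6, 130.6 and 189.0 CPM in test replicates 1, 2 and 3. Every test tumor was at least 2.17 times the highest control tumor, and the tumors of a group differed by no more than 1.45 times. The mean was 162.1 ± 29.5 CPM over the test and 51.8 ± 8.41 CPM over the control replicates (SD, n = 3 per group), and the fitted log2 fold change was 1.65 (standard error 0.26). Its unadjusted p ranked 5 of 13706, while the size of its difference ranked 692. Per length it reached 63.9 FPKM in test and 20.4 FPKM in control tumors, above 85.6% of tested genes by its mean over all tumors.

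The only counted family relative of *Alpl* was close to silent, and most tested mineralization genes were lower in the test tumors. *Alppl2*, the placental-like phosphatase, had a single count in 1 control tumor. *Akp3* and *Alpi*, the intestinal enzymes, were not found among the counted genes. Of 13 tested genes in a list of alkaline phosphatase and mineralization genes, 3 were higher and 10 lower in the test tumors, with a median log2 fold change of -1.41 against 0.02 over all tested genes. None passed the adjusted threshold, and 6 lower genes and 0 higher genes had an unadjusted p under 0.05. *Dmp1*, a matrix protein of osteocytes and dentin, had 901, 72 and 390 counts in the control and 8, 16 and 30 in the test tumors (log2 fold change -4.65, standard error 0.96, edgeR adjusted p = 0.394). *Ankh*, a transporter that raises extracellular pyrophosphate, had 6373, 389 and 2808 counts in the control and 375, 185 and 410 in the test tumors (log2 fold change -3.30, standard error 0.90, edgeR adjusted p = 0.425). The groups overlapped for *Ankh*, where control replicate 2 lay among the test tumors.

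*Erdr1* (NCBI Gene 170942, chromosome X, 170010526 to 170018797) had 85.8, 64.8 and 53.7 CPM in control replicates 1, 2 and 3. It had 146.8, 175.6 and 385.7 CPM in the test replicates, the third of which was 2.63 times the first. The mean was 236.0 ± 130.4 CPM over the test and 68.1 ± 16.3 CPM over the control replicates (SD, n = 3 per group), and the fitted log2 fold change was 1.79 (standard error 0.42), and 1.26 without test replicate 3. It was the most abundant of the 9 per length, at 303.1 FPKM in test and 87.4 FPKM in control tumors, above 97.6% of tested genes. It ranked 90 by unadjusted p and 585 by size. *Erdr1* lies in repeated sequence by the pseudoautosomal boundary of the X chromosome, so its counts depend on how reads with several matches were shared out.

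Genes near *Erdr1* on the X chromosome gave smaller differences. *Mid1*, a ubiquitin ligase gene that crosses the boundary in mice, had 107, 63 and 121 counts in the control and 215, 70 and 364 in the test tumors (log2 fold change 1.17, edgeR adjusted p = 0.641), and the groups overlapped. Of the 4 tested genes of the list, 2 were higher and 2 lower, and none had an unadjusted p under 0.05. The nearest tested gene, *G530011O06Rik*, starts 35.5 kb away and had a log2 fold change of 0.05. Among the 9 genes *Erdr1* and *Alpl* had the most similar course over the 6 tumors, with a mean absolute difference of 0.25 on the centered log2 scale.

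*Tnxb* (NCBI Gene 81877, chromosome 17, 34660453 to 34719815, plus strand) was low in every control tumor, with 1.04, 3.03 and 1.28 CPM in replicates 1, 2 and 3. The test tumors had 80.7, 10.9 and 10.6 CPM, so that test replicate 1 carried 75.1% of the level summed over all 6 tumors. Even the lowest test tumor was 3.50 times the highest control tumor. The log2 fold change was 4.24 with a standard error of 0.97, and it was 2.58 without test replicate 1. Its size ranked 49 of the tested genes and 12 among those higher in the test tumors.

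Markers of other tissues were highest in that same tumor. The 10 skeletal muscle markers summed to 1040 CPM in test replicate 1, 194.9 in test replicate 2 and 110.9 in test replicate 3, against 7.87, 203.5 and 6.50 in control replicates 1, 2 and 3. The 8 adipocyte markers summed to 892.4 CPM in test replicate 1, to 225.8 and 52.8 in the other test tumors and to 59.3 to 117.1 in the control tumors. All 10 tested muscle markers and all 4 tested adipocyte markers were higher in the test group. The summed level of the fibroblast markers did not follow, with 1015 to 2986 CPM in control and 1194 to 5016 CPM in test tumors. Single markers differed, and those below were named after their values were seen. *Dpt* had 24, 36 and 34 counts in the control and 104, 91 and 85 in the test tumors, fully apart. *Dcn* had 1330, 549 and 430 against 3210, 1689 and 604 counts, with overlap. Both were highest in test replicate 1, whereas *Col1a1*, *Col1a2*, *Col3a1*, *Lum*, *Pdgfra* and *Pdgfrb* were highest in other tumors. In control replicate 2, where muscle markers reached the level of test replicate 2, *Tnxb* had 3.03 CPM. This was the highest of the control tumors, and test replicate 2 had 10.9 CPM. The part of admixed tissue in the level of *Tnxb* was not tested.

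Other tenascins did not share the pattern of *Tnxb*. *Tnc*, the tenascin of wounds and tumor stroma, had 556, 1519 and 769 counts in the control and 151, 2179 and 2315 in the test tumors (log2 fold change 0.77, edgeR adjusted p = 0.821). *Tnn* had 12, 294 and 110 counts in the control and 4, 150 and 58 in the test tumors (log2 fold change -0.85, edgeR adjusted p = 0.862), and *Tnr* had no more than 1 count in any tumor. Both tested relatives overlapped between the groups and had their lowest test level in replicate 1, the tumor where *Tnxb* was highest. Of 21 tested tenascins and class III neighbors, 11 were higher and 10 lower, with a median log2 fold change of 0.14, and none had an unadjusted p under 0.05. The adjacent genes were *Atf6b*, an endoplasmic reticulum stress factor, at -0.59 and *C4b*, a complement gene with the near-identical copy *C4a* that can share its reads, at -1.20.

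*Hhipl2* (NCBI Gene 78772, chromosome 1, 183414463 to 183437053, plus strand) was close to the floor in every control tumor, with 2, 3 and 7 counts in replicates 1, 2 and 3. The test tumors had 1123, 42 and 813 counts, or 129.5, 5.13 and 86.3 CPM. Test replicate 1 was thus 25.3 times test replicate 2, which was still 6.87 times the highest control tumor. The pooled counts gave a ratio of 171.0 (95% exact counting interval 97.7 to 331.5), which covers counting error and not the spread between tumors. The fitted log2 fold change was 7.35 with a standard error of 1.26, which ranked 3 in size among the tested genes and 2 among those higher in the test tumors. The fitted value depends on the prior count, since the control counts are so low.

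Most tested genes in the list of the *Hhip* family and the hedgehog pathway were lower in the test tumors, while some genes with few counts were higher. *Hhip*, the inhibitor that binds hedgehog ligands, had 0 to 2 counts in any tumor. *Hhipl1* had 0 or 1 count in the control and 11, 2 and 2 in the test tumors. *Gli1*, a list gene named after its values were seen, had 3, 3 and 0 counts in the control and 15, 27 and 7 in the test tumors. It did not pass the filter on low counts, and its groups did not overlap. Of 13 tested pathway genes 1 was higher and 12 were lower, with a median log2 fold change of -0.65. An unadjusted p under 0.05 was found for 1 higher and 6 lower genes, and none passed after adjustment. *Dhh*, the desert hedgehog ligand, had 1, 3 and 13 counts in the control and 21, 55 and 60 in the test tumors (log2 fold change 3.05, standard error 0.88, edgeR adjusted p = 0.444). *Disp1*, which releases hedgehog ligands from the producing cell, had 230, 200 and 263 counts in the control and 106, 77 and 89 in the test tumors (log2 fold change -1.29, standard error 0.28, edgeR adjusted p = 0.394). Both genes were fully apart between the groups. The neighbor *Taf1a*, a subunit of an RNA polymerase I factor, starts 25.6 kb from *Hhipl2* and differed by 0.88 on the log2 scale (standard error 0.32, edgeR adjusted p = 0.513), and *Dusp10* on the other side had -0.52.

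**Figure D2:**
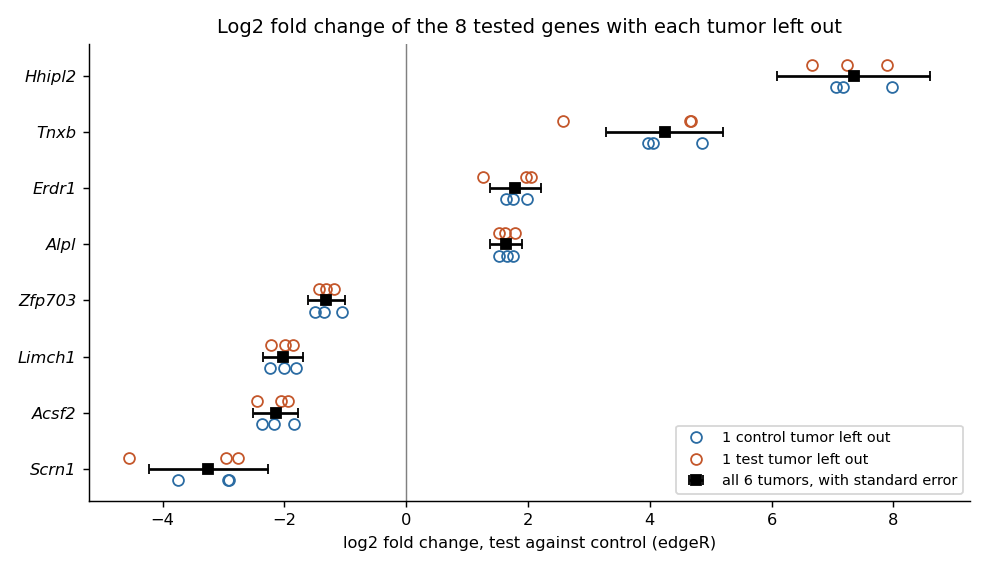
Log2 fold change of the 8 tested genes, test against control, with all 6 tumors (black squares, bars are standard errors) and with 1 control tumor (blue) or 1 test tumor (orange) left out. *Hhipl2* stays between 6.67 and 7.97 and *Alpl* between 1.53 and 1.78, whereas *Tnxb* moves to 2.58 and *Scrn1* to -4.55 when a single test tumor is left out.

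*Limch1* (NCBI Gene 77569, chromosome 5, 66745889 to 67057159, plus strand) had 111.7, 59.4 and 90.1 CPM in control replicates 1, 2 and 3. The test tumors had 16.5, 27.0 and 20.8 CPM, and the lowest control tumor was 2.20 times the highest test tumor. The mean was 21.4 ± 5.27 CPM over the test and 87.1 ± 26.3 CPM over the control replicates (SD, n = 3 per group), and the fitted log2 fold change was -2.02 (standard error 0.33). It ranked 8 by unadjusted p and 456 by size. Of 20 tested genes for non-muscle myosin II and LIM or calponin homology partners, 6 were higher and 14 lower, with a median log2 fold change of -0.21, and 2 had an unadjusted p under 0.05. These were *Smtn*, the actin-binding smoothelin, with 1621, 1154 and 1672 counts in the control and 766, 695 and 844 in the test tumors (log2 fold change -0.90, standard error 0.25, edgeR adjusted p = 0.425), and *Lmo7*. *Lmo7*, which like *Limch1* carries both a calponin homology and a LIM domain, had 666, 496 and 384 counts in the control and 353, 169 and 173 in the test tumors (log2 fold change -1.11, standard error 0.40, edgeR adjusted p = 0.506). Both were apart between the groups on the scaled level. For *Lmo7* the gap was narrow, with 40.9 CPM in the lowest control and 40.7 CPM in the highest test tumor. The chromosomal neighbors *Apbb2* and *Tmem33* had log2 fold changes of -0.76 and -0.27.

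*Acsf2* (NCBI Gene 264895, chromosome 11, 94557102 to 94602139, minus strand) had 79.4, 160.2 and 112.0 CPM in control replicates 1, 2 and 3. The test tumors had 23.4, 36.9 and 19.4 CPM. Control replicate 2 was the highest of all 6 tumors here, and the lowest control tumor was 2.15 times the highest test tumor. The mean was 26.6 ± 9.14 CPM over the test and 117.2 ± 40.6 CPM over the control replicates (SD, n = 3 per group), and the fitted log2 fold change was -2.14 (standard error 0.37), ranking 11 by unadjusted p and 395 by size. *Chad*, the cartilage leucine-rich protein chondroadherin, lies inside *Acsf2* on the opposite strand and shares no exon bases with it. *Chad* had 65, 474 and 34 counts in the control and 16, 49 and 0 in the test tumors, so that it too was highest in control replicate 2 (log2 fold change -3.0, standard error 1.40, edgeR adjusted p = 0.639).

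The other acyl-CoA synthetases gave values in both directions. *Acsf3*, the mitochondrial malonyl-CoA synthetase, had 112, 185 and 147 counts in the control and 200, 163 and 165 in the test tumors (log2 fold change 0.31, edgeR adjusted p = 0.794). Of 15 tested relatives 10 were higher and 5 lower, with a median log2 fold change of 0.28, and 1 in each direction had an unadjusted p under 0.05. *Slc27a3*, a fatty acid transport protein with synthetase activity, had 444, 71 and 438 counts in the control and 44, 92 and 63 in the test tumors (log2 fold change -2.20, standard error 0.69, edgeR adjusted p = 0.458). *Acsl1*, the long-chain synthetase of fat, muscle and liver, had 300, 744 and 591 counts in the control and 1645, 535 and 1248 in the test tumors (log2 fold change 1.12, standard error 0.46, edgeR adjusted p = 0.558). Both overlapped between the groups, and *Acsl1* was highest in test replicate 1, where the adipocyte and muscle markers were highest.

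*Zfp703* (NCBI Gene 353310, chromosome 8, 26977336 to 26981462, plus strand) had 214.0, 115.8 and 153.0 CPM in control replicates 1, 2 and 3 and 74.8, 52.6 and 66.5 CPM in the test replicates. The gap between the groups was the narrowest of the 7 tested genes without overlap, with a lowest control tumor 1.55 times the highest test tumor. The mean was 64.7 ± 11.2 CPM over the test and 160.9 ± 49.6 CPM over the control replicates (SD, n = 3 per group), and the fitted log2 fold change was -1.32 (standard error 0.30). It ranked 75 by unadjusted p and 1044 by size, the smallest difference of the 8 tested genes. An antisense gene, *Gm45371*, covers 459 exon bases of *Zfp703*, and whether counting used strand is not given in the sources used here. The only relative, *Zfp503*, had 342, 476 and 244 counts in the control and 575, 347 and 622 in the test tumors (log2 fold change 0.58, edgeR adjusted p = 0.698).

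Most genes around *Zfp703* had differences near 0. Within 2000 kb on either side, a window chosen after values were seen, 25 other genes were tested, and their median log2 fold change was 0.07. *Erlin2*, an endoplasmic reticulum protein gene that starts 46.0 kb away and is often amplified with the human *ZNF703*, had 1093, 1174 and 1087 counts in the control and 1373, 728 and 1299 in the test tumors (log2 fold change 0.06, standard error 0.27). The nearest tested gene on the other side, *Thap1*, starts 819.2 kb away and had -0.07. *Adgra2*, an adhesion receptor that acts in Wnt signaling, had 777, 118 and 783 counts in the control and 40, 38 and 81 in the test tumors (log2 fold change -3.38, standard error 0.72, edgeR adjusted p = 0.394). *Fgfr1*, a fibroblast growth factor receptor, differed by -2.90 on the log2 scale (standard error 0.95, edgeR adjusted p = 0.475), with control replicate 2 below all test tumors in counts. *Eif4ebp1*, a translation inhibitor named after its values were seen, was the only gene of this window with an unadjusted p under 0.05 that was higher (log2 fold change 0.72, edgeR adjusted p = 0.516).

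**Figure D3:**
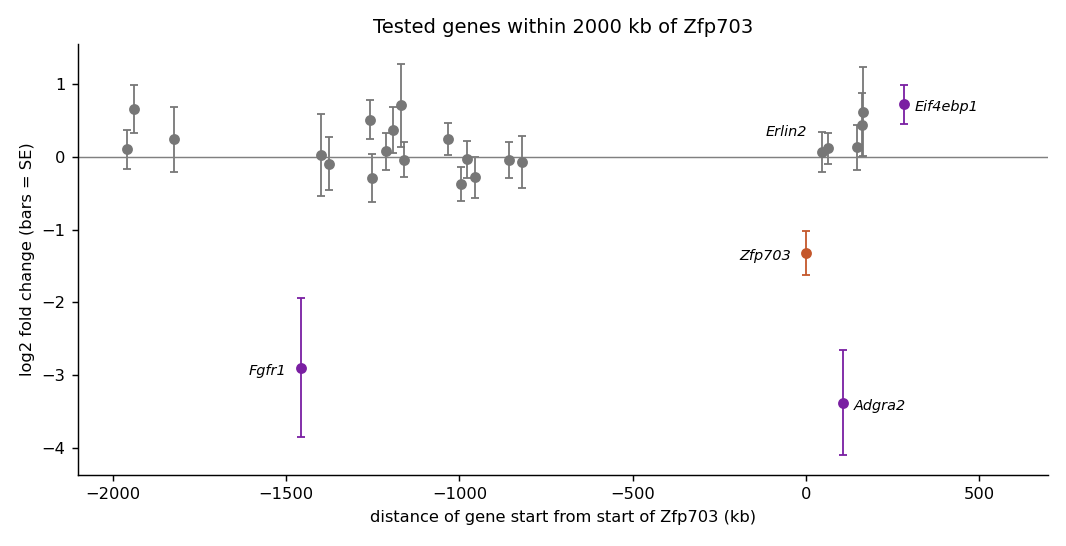
Log2 fold change, test against control, with its standard error for each tested gene within 2000 kb of *Zfp703*, against the distance of its start from that of *Zfp703* in kb. *Zfp703* (orange, -1.32), *Adgra2* (-3.38) and *Fgfr1* (-2.90) stand below the other genes, which lie between -0.37 and 0.72, and purple points have an unadjusted p under 0.05.

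*Scrn1* (NCBI Gene 69938, chromosome 6, 54474794 to 54566517, minus strand) had 38.9, 5.30 and 39.3 CPM in control replicates 1, 2 and 3 and 1.61, 6.47 and 0.74 CPM in the test replicates. The groups overlapped, because control replicate 2 lay below test replicate 2 (49 against 53 counts). The log2 fold change was -3.25 with a standard error of 0.98, and it ran from -4.55 without test replicate 2 to -2.76 without test replicate 3. It ranked 336 by unadjusted p and 115 by size. *Wipf3*, a regulator of actin assembly on the opposite strand, shares 242 exon bases with *Scrn1* and had 35 to 37 counts in the control and 12 to 93 in the test tumors.

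The other secernins had log2 fold changes nearer to 0. *Scrn2* had 145, 233 and 151 counts in the control and 171, 247 and 147 in the test tumors (log2 fold change 0.17, edgeR adjusted p = 0.906), and the groups overlapped. *Scrn3* had 128, 148 and 151 counts in the control and 128, 67 and 117 in the test tumors (log2 fold change -0.41, edgeR adjusted p = 0.77), and on the scaled level its groups were apart by a narrow gap, 14.8 CPM in both the lowest control and the highest test tumor after rounding. Of 23 tested genes for secernins and regulated exocytosis 15 were higher and 8 lower, with a median log2 fold change of 0.12. An unadjusted p under 0.05 was found for 1 higher and 2 lower genes. *Rab27a*, a small GTPase that brings secretory vesicles to the membrane, had 1589, 1702 and 1074 counts in the control and 530, 278 and 209 in the test tumors (log2 fold change -2.04, standard error 0.42, edgeR adjusted p = 0.394). *Stx3*, an apical membrane syntaxin, had 140, 351 and 199 counts in the control and 367, 540 and 538 in the test tumors (log2 fold change 1.13, standard error 0.37, edgeR adjusted p = 0.475). Both were fully apart between the groups on the scaled level.

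*Otor* (NCBI Gene 57329, chromosome 2, 143078393 to 143081713, plus strand) had 1259, 4 and 450 counts in the control replicates in order and 3, 0 and 3 counts in the test replicates. These are 145.7, 0.43 and 47.9 CPM against 0.35, 0 and 0.32 CPM. Control replicates 1 and 3 were thus high, while control replicate 2 had 1 count more than the highest test tumors, and all test tumors were at or under the floor. The test tumors had 6 counts in all and the control tumors 1713, a pooled ratio of 275.2 (95% exact counting interval 126.2 to 750.9, counting error only). Because of control replicate 2 the gene did not pass the filter on low counts, and no fitted fold change is given. On the log2(CPM + 0.5) scale the group means differed by -4.74, and the control tumors had an SD of 3.83.

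Some cartilage matrix genes were high in the same pair of control tumors and others were not. *Col2a1*, the fibrillar collagen of cartilage, had 21027, 114 and 2754 counts in the control and 33, 129 and 31 in the test tumors (log2 fold change -6.91, standard error 1.81, edgeR adjusted p = 0.407). *Col11a2*, a collagen that assembles with it, had 511, 15 and 353 counts in the control and 4, 7 and 15 in the test tumors (log2 fold change -5.05, standard error 1.20, edgeR adjusted p = 0.394). *Chad*, named above, was highest in control replicate 2 instead, and *Col9a2*, part of a collagen on the fibril surface, had 792, 851 and 420 counts in the control and 424, 715 and 933 in the test tumors (log2 fold change 0.04, edgeR adjusted p = 0.979). The defining cartilage proteoglycan *Acan* had no more than 7 counts in any tumor, and *Sox9*, the chondrocyte transcription factor, had 1102 to 2285 counts in the control and 1674 to 3846 in the test tumors. *Comp* was high in control replicates 1 and 3 like *Otor*, with 604, 5 and 435 counts in the control and 3, 14 and 2 in the test tumors. *Cnmd* was too, with 1997, 6 and 1276 counts in the control and 10, 68 and 49 in the test tumors. *Col9a2*, *Acan*, *Sox9*, *Comp* and *Cnmd* were named after their values were seen. The cartilage and bone markers summed to 4670, 274.2 and 1178 CPM in control replicates 1, 2 and 3 and to 103.3 to 257.8 CPM in the test tumors. Most of the control sums came from *Col2a1*, given above, and *Col9a1*. In the control replicates in order these had 2433, 12.3 and 293.4 CPM and 2125, 252.3 and 836.1 CPM. *Dmp1* had 104.3, 7.79 and 41.6 CPM there, and *Acan*, *Bglap* and *Ibsp* had no more than 5.90 CPM in any tumor. The part of such tissue in the level of *Otor* was not tested. Of 14 tested genes in the list of MIA family and cartilage matrix genes 3 were higher and 11 lower, with a median log2 fold change of -1.74, and 6 lower genes had an unadjusted p under 0.05. The relatives *Mia* and *Mia3* had log2 fold changes of -0.77 and 0.25 and overlapping groups, while the deposited tables count *Mia2* under 2 gene identifiers and it is not compared here. The genes beside *Otor*, *Snrpb2* and *Dstn*, had -0.23 and 0.11.

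**Figure D4:**
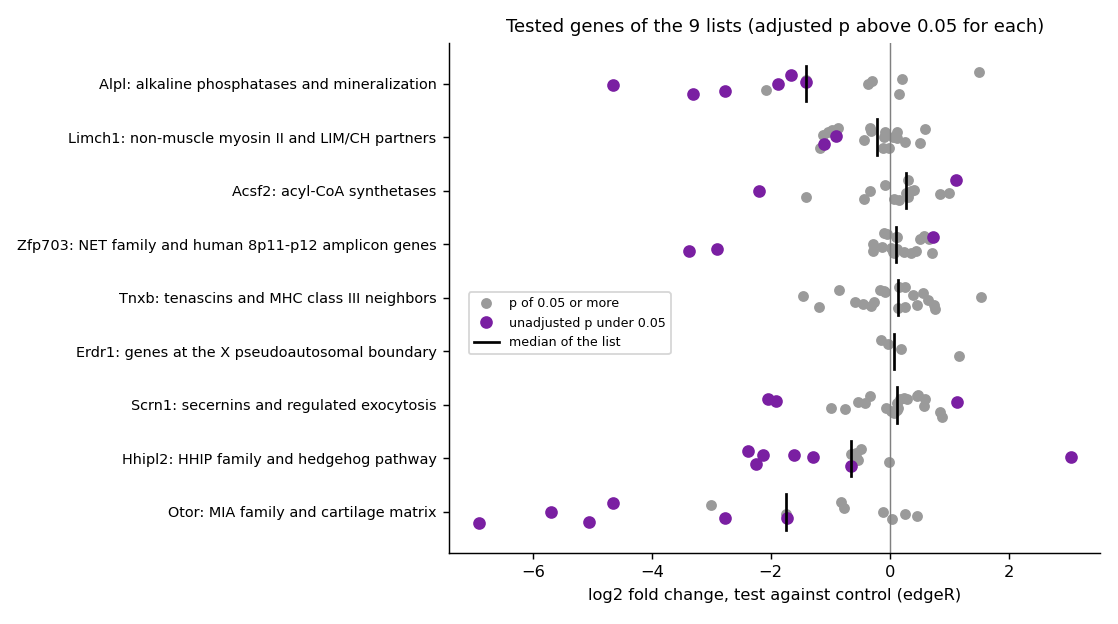
Log2 fold change, test against control, of the tested genes in the 9 lists of family, pathway and neighboring genes, 1 point per gene, with purple points for an unadjusted p under 0.05 and a black line at the median of a list. The medians lie at -1.41 for the *Alpl*, -0.65 for the *Hhipl2* and -1.74 for the *Otor* list and between -0.21 and 0.28 for the other 6.

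Over the 9 lists 144 genes other than the 9 were tested. None passed an adjusted p of 0.05 in edgeR's test. At an unadjusted p under 0.05, 4 (2.78%) were higher and 25 (17.4%) lower in the test tumors, against 3.15% and 5.26% of all tested genes. Of those 25, 18 belonged to the *Alpl*, *Hhipl2* and *Otor* lists, which had 6 each. All 18 had their lowest control level in control replicate 2, as the counts above show for *Dmp1*, *Ankh*, *Disp1*, *Col2a1* and *Col11a2*. The same share over all tested genes was not computed, and the lists were chosen with earlier results of these data known. Nothing about the lists is therefore read from these shares.

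Per length, the order of the genes differed between the groups. By mean FPKM the test tumors ran from *Erdr1* (303.1) through *Alpl* (63.9), *Hhipl2* (27.3), *Zfp703* (20.1), *Acsf2* (8.49), *Tnxb* (3.59), *Limch1* (3.47) and *Scrn1* (1.61) to *Otor* (0.25). The control tumors ran from *Erdr1* (87.4) through *Otor* (68.3), *Zfp703* (49.4), *Acsf2* (38.4), *Alpl* (20.4), *Scrn1* (15.5), *Limch1* (14.2) and *Tnxb* (0.19) to *Hhipl2* (0.16). Neighbors in these orders such as *Tnxb* and *Limch1* in test tumors, or *Scrn1* and *Limch1* and *Tnxb* and *Hhipl2* in control tumors, did not differ beyond the spread of their tumors. *Otor* held its second place in the control order through control replicates 1 and 3 alone (149.9 and 54.5 FPKM, against 0.49 in replicate 2).

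The control tumor nearest to the test tumors was replicate 2 for 5 genes (*Limch1*, *Zfp703*, *Tnxb*, *Scrn1* and *Otor*), replicate 1 for 3 (*Alpl*, *Acsf2* and *Erdr1*) and replicate 3 for *Hhipl2*. Test replicate 2 was nearest to the control tumors for 5 genes (*Alpl*, *Limch1*, *Acsf2*, *Scrn1* and *Hhipl2*). The 9 genes therefore did not share a single order of tumors within the groups.

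For each gene the 3 tested genes with the nearest course over the 6 tumors were found by the mean absolute difference of centered log2(CPM + 0.5), where a smaller value is a closer course. The names depend on the measure, since by Pearson's r only 2 of the 27, *Phka1* for *Zfp703* and *Fgd1* for *Limch1*, were again among the nearest 3. *Zfp703* had the closest, *Phka1*, a phosphorylase kinase subunit, at 0.07, *Tmtc2* at 0.09 and *Mark1* at 0.12. *Alpl* ran with *Mir17hg*, the host gene of a microRNA cluster, and *Nipal1*, both at 0.17, and with *Tmc4* at 0.18. *Limch1* ran with *Tpst1* and *Fgd1* at 0.20 and *Tinagl1* at 0.23, *Acsf2* with *Gdf11* at 0.23 and *Clmp* and *Calml3* at 0.28, and *Erdr1* with *9130019P16Rik* at 0.19, *Snhg20* at 0.21 and *Alpl* at 0.25.

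By this distance, which also grows with the spread of the gene itself, most genes with a wide spread had looser companions. *Tnxb* was nearest to *Pygm*, the muscle glycogen phosphorylase, at 0.43, followed by *Sv2b* at 0.49 and *Cyp2e1* at 0.50. *Scrn1* was nearest to *Scrg1*, a gene also known from cartilage cells, at 0.21, *Slc38a3* at 0.39 and *A2m* at 0.41. *Otor* was nearest to *Pou2af1* at 0.33, *Igf2* at 0.58 and *Olig1* at 0.60, each of them low in control replicate 2. *Hhipl2* had no close companion by distance, with *Gpx2*, *Bcl2l15* and *Mtus2* at 1.28, 1.29 and 1.29. By Pearson's r, which ignores the size of the spread, this ranking did not hold. The nearest genes of *Hhipl2* then had an r of 0.988, 0.987 and 0.985, and the nearest gene of *Alpl* had 0.977. These distances rest on 6 tumors of the same libraries.

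**Figure D5:**
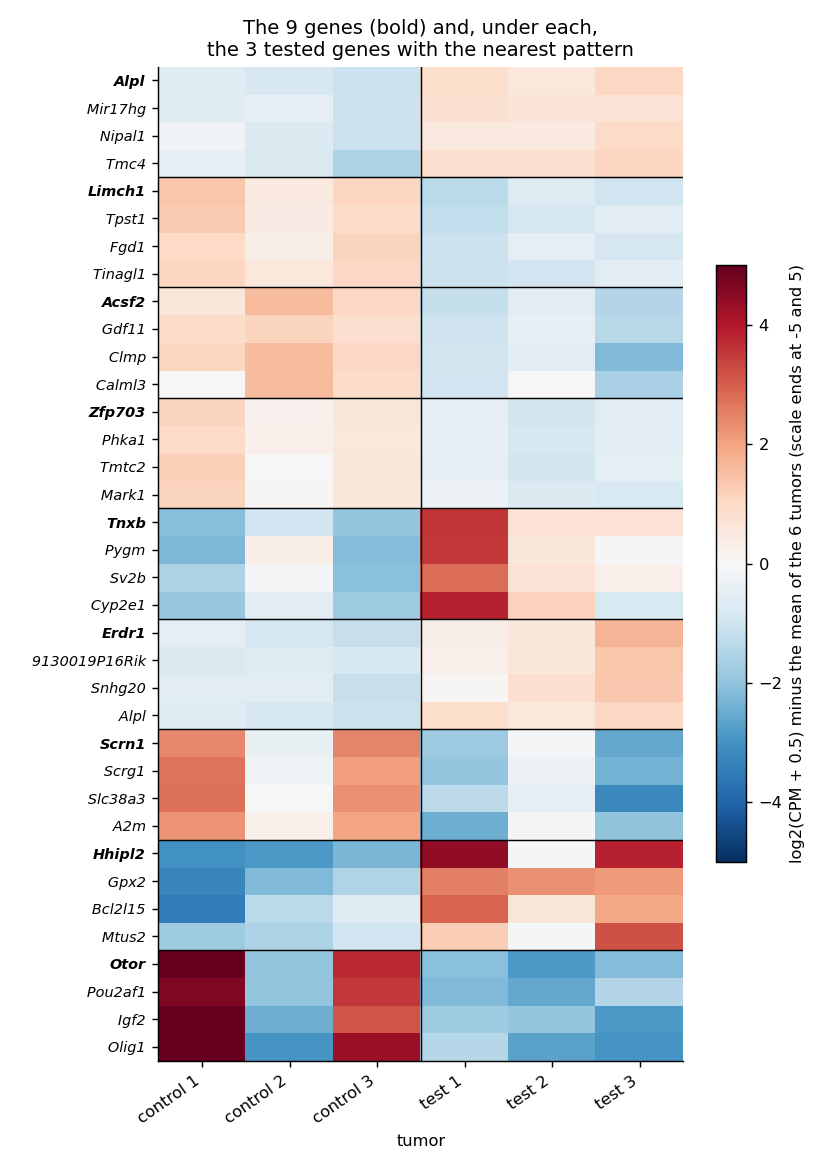
Log2(CPM + 0.5) in each tumor minus the mean of the 6 tumors, for the 9 genes (bold) and the 3 tested genes nearest to each, with red above and blue below the mean and the color scale ending at -5 and 5. *Otor* and its companions are red in control replicates 1 and 3 only, *Tnxb* and its companions are strongest in test replicate 1, and the genes under *Hhipl2* differ visibly from it.

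The gene length used for FPKM is an average over the counted transcripts weighted by their abundance, so it can move when transcript use moves, and the choice of the genes did not use it. It varied only for *Limch1* and *Zfp703*, which were each counted over 2 transcripts. For *Limch1* it was 6042, 6060 and 5996 bases in control replicates 1, 2 and 3 and 5938, 6012 and 6142 bases in the test replicates, so the groups overlapped. The means were 6031 ± 103.1 bases in test and 6032 ± 33.2 bases in control tumors (SD, n = 3 each; exact permutation test, two-sided, p = 1, adjusted p = 1). For *Zfp703* it was 3210, 3202 and 3213 bases in the control and 3190, 3204 and 3191 bases in the test replicates. The means were 3195 ± 7.63 bases in test and 3208 ± 5.62 bases in control tumors, 0.42% apart (SD, n = 3 each; exact permutation test, two-sided, p = 0.2, adjusted p = 0.4 over the 2 genes). With 3 tumors in each group such a test cannot give a p below 0.1. A difference in transcript use between the groups was therefore not detectable for either gene.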

How the data were processed

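RNA from 6 breast tumors, 3 test and 3 control, was sequenced at the Beijing Genomics Institute and aligned to mm10 (GRCm38) with Bowtie, and the submitters' processing notes also name BWA and RSEM. The authors deposited expected counts per gene without normalization, together with FPKM, which the authors normalized for depth and for the gene length given beside it. The annotation release and the use of strand are not given in the sources used here. Replicates were not pooled. The study states that every tumor was taken from a different mouse.

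Genes not listed for a tumor were set to a count of 0. Of 18460 genes, 18400 matched RefSeq by identifier, 13 through a transcript and 47 not at all. Expected counts were rounded to whole numbers, filtered with filterByExpr, TMM-scaled and compared by the quasi-likelihood test of edgeR 4.0.16 in R 4.3.3, without covariates and with Benjamini-Hochberg adjustment over 13706 genes. Standard errors are the size of the log2 fold change over the square root of F. The biological coefficient of variation was 0.434. Exact permutation tests and counting intervals used scipy 1.17.1.

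The alternatives were DESeq2 1.42.0, RLE scaling, no filter, at least 10 counts in every tumor, limma 3.58.1 on log2(FPKM + 1) or log2(FPKM + 0.1) where the mean FPKM reached 1, a replicate block, and each tumor left out. The genes and lists were chosen with earlier results of these data known. Named were the 9 genes, their closest relatives, up to 2 genes of each list with the lowest unadjusted p under 0.05, the 3 genes with the nearest course, and the nearest tested gene on each side of a chromosome, with exceptions stated.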

Additional observations from a re-analysis of the deposited data

How the results depend on the processing

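The number of genes at an adjusted p of 0.05 was 0 with edgeR under RLE scaling, without a filter on low counts, with at least 10 counts in every tumor, and with the replicate number as a block, and 0 with limma on log2(FPKM + 0.1). It was 313 with DESeq2 and 1 with limma on log2(FPKM + 1). With each tumor left out in turn it ran from 0 to 182, the 182 being without control replicate 2, and it was 0 without any of the other 5. At an unadjusted p under 0.05 the counts over all genes then ran from 271 (without control replicate 3) to 737 (without control replicate 2) higher and from 364 (without control replicate 1) to 1283 (without control replicate 2) lower, with 430 lower without control replicate 3. Among the list genes they ran from 2 (without control replicate 3) to 10 (without control replicate 2) higher, with 8 without test replicate 3, and from 18 to 35 lower. Without the filter 8 list genes were higher.

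Of 101 alternative log2 fold changes of the 8 tested genes none reversed. Because the genes were chosen on this comparison, nothing is read from that. *Tnxb*, *Scrn1* and *Hhipl2* had no value with at least 10 counts in every tumor. On log2(FPKM + 1), which compresses low levels, *Tnxb* had 1.55 and *Hhipl2* 3.83. The other large move was *Tnxb* at 2.58 without test replicate 1. The difference of *Otor* on the log2 scale ran from -6.91 to -3.26. The count of the 9 genes without overlap was 8 by RLE-scaled CPM, FPKM and unscaled CPM, and 8 to 9 with a tumor left out. Groups that are apart stay apart when a tumor is left out, so nothing is read from the latter. The length difference of *Limch1* ran from -57.1 to 44.7 bases and that of *Zfp703* from -17.9 to -11.1.

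The deviations of same-numbered test and control tumors from their group means had correlations across genes of -0.025, 0.121 and -0.137. Those of differently numbered tumors ran from -0.162 to 0.218. The same numbers thus gave no closer likeness, which cannot show whether they pair mice. With the number as a block edgeR's counts were 0, 408 higher and 648 lower over all genes, and 6 higher and 21 lower among the list genes.

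Depth limits *Hhipl2* in the control and *Otor* in the test tumors, which lie near 3 counts.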
